A study of Mus musculus with 9 samples.

Results

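ROC6, a mouse oral squamous cell line, was compared between 3 libraries of a Csmd3 knockout made with guide 1 (labelled CSMD3, KO guide 1) and 3 libraries of the control (labelled WT Control), which are 6 of the 9 libraries of the series. The other 3 libraries come from a knockout made with guide 2, and their values are given only where they are named. They share the fit, so every p-value also rests on their spread. All 9 share the same line, medium and serum, and no further treatment is given. The growth protocol calls ROC6 a cancer line, while the series title speaks of premalignant cells. The members are the genes whose symbol occurs in 1 row of the table and whose mean over these 6 libraries was 1 FPKM or more, which left 6948 of 15620 rows. FPKM counts fragments per length of transcript and per mapped fragments of the library, so that levels of different genes can be compared. The series speaks of a clone 1 and a clone 2, so that what the guide 1 libraries have in common is also what 1 clone of edited cells has in common, and clone and knockout cannot be told apart. Nothing in the labels says whether replicates were grown separately, and the p-values rest on a spread between libraries that may be technical only.

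Csmd3 encodes a very large membrane protein whose extracellular part is built from alternating CUB and sushi domains, folds that are also found in regulators of the complement system. It is known best from the nervous system, where it takes part in dendrite development, and it is often mutated in human carcinomas. Oral squamous cells are keratinocytes, which hold to each other by desmosomes and to the basement membrane by integrins. The question of the comparison is how loss of Csmd3 changes the transcriptome of such cells.

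Csmd3 itself was not analysed here, which leaves the labels without a check by the edited gene. The table also favours a shared direction: among 15446 rows with a unique symbol, 15441 had the means of guide 1 and guide 2 both above or both below that of the control, so counts below are counts among rows with a shared direction. Summed over the uniquely named genes, the 6 libraries held 162625 to 167717 FPKM. Absolute depth is unknown, and the steps between low values placed the depths of the other guide 1 libraries at 0.885 and 0.842 of that of replicate 1, and those of the controls at 0.955, 0.905 and 0.776. Correlations of log2 values over the genes tested were 0.993 within guide 1, 0.990 to 0.993 within the controls and 0.892 to 0.904 between these groups. Control replicate 3 was the lowest of the 3 controls in 252 of the 341 genes that were lower with guide 1 by 2-fold or more (73.9%), against 40.2% of all genes tested. It was the highest control in 184 of the 398 genes that were higher by 2-fold or more (46.2%), against 35.5% of all genes, so its values lay toward the knockout more often than those of the other controls.

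The label of a squamous line was set against 20 markers of squamous keratinocytes, of which 10 had a row and 6 were tested. Perp, Sfn, Itga6 and Jup were higher with guide 1 and Klf5 and Pitx1 lower, and the summed level of the 10 rows was 223 to 240.1 FPKM with guide 1 and 195 to 203 FPKM in the controls. Set against the median of its block of neighbouring genes (described at the end), Klf5 was not called, which left 1 of the 2 lower calls. The defining basal keratins Krt5 and Krt14 and the regulator Trp63 were not analysed here, and Krt15 and Krt17 stayed under 0.3 FPKM in all 6 libraries, with Krt15 listed at 0 in all 3 controls. Rows of leukocyte, endothelial, striated muscle and neural markers summed to at most 3.01 FPKM in any of the 6 libraries. Fibroblast markers, 6 rows of 15 listed, summed to 119 to 135 FPKM with guide 1 and 148 to 159.6 FPKM in the controls. Of the 4 tested, Twist2 was called higher by 2-fold or more, 2 were called lower and 1 was not called. The median log2 fold change of these 4 was -0.01. The fibrillar collagen gene Col1a2 was at most 0.0615 FPKM in any of the 6 libraries. Rows of simple and salivary gland epithelium markers summed to 166 to 182 FPKM with guide 1 and 26.9 to 29.0 FPKM in the controls. The 2 tested members were Krt18 and Aqp5, and 3 of the 8 rows stayed under 1 FPKM in all 6 libraries. Under the filter, Muc1 was lower with guide 1, at a mean of 0.447 FPKM against 1.13 FPKM in the controls. Krt7, Krt19 and Krt8 were higher, at means of 1.21, 0.908 and 0.524 FPKM against 0.0167, 0.0116 and 0 FPKM. The part of these shifts in other results was not tested, and in bulk RNA fewer cells of a type and less RNA per cell cannot be told apart.

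Guide 1 and control differed in most of the genes tested at small size and in a smaller set at large size. The rows of the table favour a direction shared by both knockouts, so the shares below need not hold for the whole transcriptome. Of the 6948 genes, 2091 were higher with guide 1 (30.1%) and 2667 lower (38.4%) at a limma adjusted p under 0.05, 68.5% in all, with quartiles of the log2 fold change at -0.38 and 0.27 and a median of -0.05. Calls with a difference of 2-fold or more on the log2(FPKM + 1) scale numbered 739 (10.6%), 398 higher (5.73%) and 341 lower (4.91%). A difference of at least 3 log2 units was reached by 31 genes upward and 24 downward. All 3 guide 1 libraries lay above all 3 controls in 32% of the genes and below them in 40.2%, together 72.2%. The highly expressed genes took part: of the 265 that averaged at least 100 FPKM, 21 were called higher by 2-fold or more and 15 lower. A test against a fold minimum of 1.2 called 2592 genes, and without chromosome 5, described at the end, 48.4% of the calls were higher in place of 43.9%. The filter stood between Cd68, at a mean of 1.00 FPKM and inside, and Gm22027, at 0.9996 FPKM and outside. It let in 237 genes with a control mean under 1 FPKM and 243 with a guide 1 mean under 1 FPKM, which passed through the other group, and of the 6468 genes with both means at 1 FPKM or more 4348 were called.

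**Figure D1:**
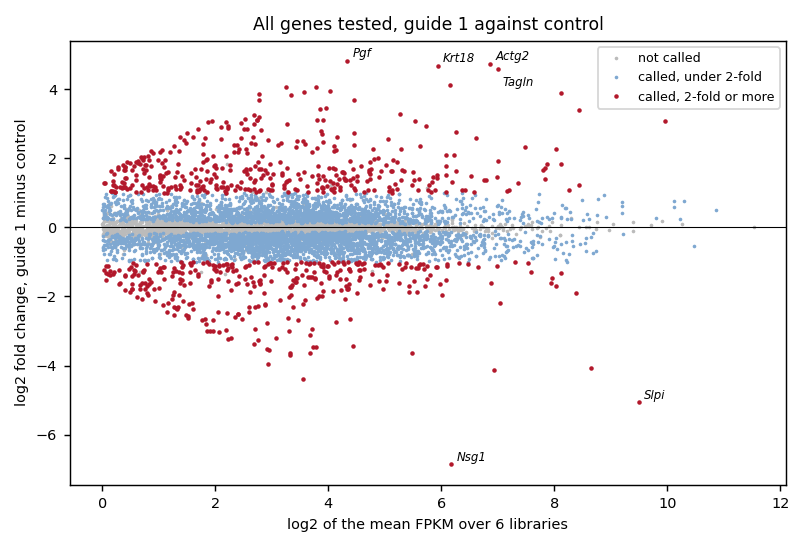
Each point is 1 of the 6948 genes tested, with the log2 of its mean FPKM over the 6 libraries on the x axis and its log2 fold change, guide 1 minus control, on the y axis. Grey points were not called, blue points were called under 2-fold and the 739 red points at 2-fold or more; red points occur at low and at high means, and Nsg1 lies lowest.

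The 6 most abundant genes that were called without overlap between groups encode actins, ferritin, a chaperone and ribosomal proteins, and each moved by less than 1 log2 unit. Actb, the cytoplasmic beta-actin, was at 2239, 2167 and 2138 FPKM with guide 1 and 1499, 1492 and 1631 FPKM in the controls and rose by 0.50. Actg1, its gamma counterpart, stood at 1399, 1362 and 1401 FPKM with guide 1 and 815, 799.9 and 857 FPKM in the controls and rose by 0.75. Neither gene's groups overlapped. Ftl1, the ferritin light chain, rose by 0.75, Hsp90ab1, a constitutive HSP90 chaperone, by 0.59, and the ribosomal protein gene Rps2 by 0.23 on the log2 scale (-0.09 under quantile normalization), while Rplp0, of the ribosomal stalk, fell by 0.54.

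The largest increases named a secreted growth factor, cytoskeletal genes and a laminin chain. Pgf, placental growth factor, a ligand of VEGF receptor 1, was at 40.02, 40.1 and 39.4 FPKM with guide 1 and 0.509, 0.494 and 0.346 FPKM in the controls (log2 fold change 4.82, SE 0.0874, limma adjusted p = 5.72e-11). Every guide 1 library lay far above every control, and guide 2 stood between them at a mean of 2.24 FPKM. Actg2, a smooth muscle actin, was at 219, 227 and 231 FPKM with guide 1 and 8.21, 7.72 and 6.66 FPKM in the controls (log2 fold change 4.74, SE 0.0627, limma adjusted p = 5.98e-12). Krt18, the type I keratin of simple epithelia, was at 116, 126 and 114 FPKM with guide 1 and 4.33, 3.495 and 3.27 FPKM in the controls (log2 fold change 4.68, SE 0.1098, limma adjusted p = 2.56e-10). Its usual partner Krt8 was under the filter, listed at 0 in all 3 controls and at 0.592, 0.478 and 0.5003 FPKM in the guide 1 libraries, so the pair was far from equal in level. Guide 2 had Krt18 at 6.06, 4.58 and 4.39 FPKM, close to the controls. Tagln, which encodes the actin-binding protein transgelin, was at 253, 244 and 239.9 FPKM with guide 1 and 8.88, 8.47 and 10.9 FPKM in the controls (log2 fold change 4.57, SE 0.0768, limma adjusted p = 3.59e-11).

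Igfbp7, which is secreted and binds IGF ligands, had the highest level with guide 1 of the 15 largest increases, at 497, 520.1 and 547 FPKM with guide 1 and 34.9, 34.4 and 34.4 FPKM in the controls (log2 fold change 3.88, SE 0.0428, limma adjusted p = 2.48e-12). Its control libraries were nearly equal and every guide 1 library lay far above them. Olfml2b, a secreted olfactomedin-domain protein, was at 129, 133 and 142 FPKM with guide 1 and 7.21, 6.64 and 6.51 FPKM in the controls. Lama5, the laminin alpha-5 chain of basement membranes, was at 27.3, 34.7 and 32.9 FPKM with guide 1 and 1.08, 1.14 and 1.09 FPKM in the controls. Sdc3, a heparan sulfate proteoglycan of the syndecan family, was at 27.7, 24.3 and 28.7 FPKM with guide 1 and 0.759, 0.553 and 0.683 FPKM in the controls. These 3 genes rose by 4.13, 3.95 and 4.07 on the log2 scale with no overlap between groups. Parvb, which links integrin-linked kinase to actin, was at 22.8, 22.5 and 24.1 FPKM with guide 1 and 0.526, 0.573 and 0.743 FPKM in the controls, and Nes, the intermediate filament protein nestin, at 19.7, 20.6 and 19.4 FPKM with guide 1 and 0.422, 0.529 and 0.472 FPKM in the controls. Both were under 1 FPKM in every control, and their log2 fold changes were 3.90 and 3.82. S100a4, a small S100 protein linked to cell motility, was at 45.4, 39.5 and 39.7 FPKM with guide 1 and 1.21, 2.85 and 3.21 FPKM in the controls, a log2 fold change of 3.69 with an SE of 0.212. Control replicate 1 was the lowest of its controls, and the guide 2 libraries stood above guide 1, at 257, 202 and 183 FPKM. Aif1l, an actin-binding protein, rose by 3.46.

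Several of the largest increases began from controls at or near 0. Slco4a1, an organic anion transporter, was listed at 0 in 2 controls and at 0.0101 FPKM in replicate 3, against 12.99, 13.6 and 14.4 FPKM in the guide 1 libraries. Tspan17, a tetraspanin, was at 19.3, 18.005 and 19.2 FPKM with guide 1 and 0.457, 0.129 and 0 FPKM in the controls. Prl2c2, which encodes the prolactin-like hormone proliferin, was at 13.6, 14.5 and 12.7 FPKM with guide 1 and 0.144, 0.254 and 0 FPKM in the controls, and reads of Prl2c2 and its near copy Prl2c3, at 9.25, 7.29 and 6.5997 against 0.0321, 0 and 0.0308 FPKM, could be divided differently between libraries. All 3 were on in every guide 1 library and at most 0.457 FPKM in any control.

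**Figure D2:**
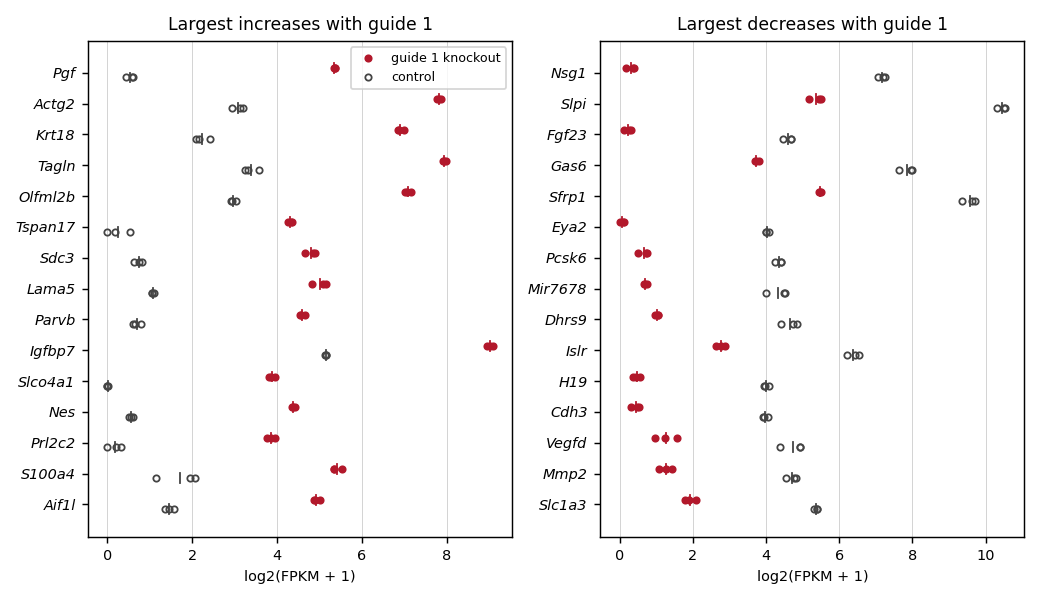
Each row is a gene, the x axis is log2(FPKM + 1), filled red circles are the 3 guide 1 libraries, open circles the 3 controls, and short bars the mean of the 3. The 15 largest increases are on the left and the 15 largest decreases on the right, from Pgf at 4.82 and Nsg1 at -6.86 downward in size; in no row do the groups overlap.

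The largest decreases named secreted factors, a morphogen antagonist and an endosomal protein. Nsg1, an endosomal protein known from neurons, was at 0.316, 0.301 and 0.1204 FPKM with guide 1 and 153, 146 and 133 FPKM in the controls (log2 fold change -6.86, SE 0.0719, limma adjusted p = 2.48e-12). It was the largest difference in either direction, and guide 2 stood between the groups at 24.3, 24.6 and 24.6 FPKM. Slpi, a secreted inhibitor of leukocyte proteases made by mucosal epithelia, was at 44.1, 43.1 and 35.2 FPKM with guide 1 and 1445, 1479 and 1272 FPKM in the controls (log2 fold change -5.07, SE 0.101, limma adjusted p = 1.06e-10). It was among the most abundant transcripts of the controls. The 71-base hairpin gene Mir7678 lies on the same strand within an exon of Slpi, so its fall by 3.63 cannot be told apart from that of Slpi. Sfrp1, a secreted antagonist of Wnt ligands, was at 43.8, 42.5 and 44.1 FPKM with guide 1 and 831, 785 and 656 FPKM in the controls (log2 fold change -4.08, SE 0.0754, limma adjusted p = 5.83e-11). Gas6, a ligand of the TAM receptor tyrosine kinases, was at 12.1, 12.9 and 12.1 FPKM with guide 1 and 252, 249.97 and 197 FPKM in the controls (log2 fold change -4.12, SE 0.0843, limma adjusted p = 1.14e-10). In Slpi, Sfrp1 and Gas6 control replicate 3 was the lowest control and still far above every guide 1 library.

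Fgf23, a hormone of phosphate balance, was at 0.0808, 0.246 and 0.186 FPKM with guide 1 and 24.6, 24.7 and 20.9 FPKM in the controls, and the developmental coactivator Eya2 at 0.0736, 0 and 0.080002 FPKM with guide 1 and 15.96, 14.96 and 14.9 FPKM in the controls. Both were close to 0 in all guide 1 libraries, with log2 fold changes of -4.38 and -3.95. Cdh3, the P-cadherin of basal keratinocytes, was at 0.253, 0.399 and 0.455 FPKM with guide 1 and 14.2, 14.5 and 15.5 FPKM in the controls. H19, an imprinted noncoding RNA, was at 0.368, 0.302 and 0.481 FPKM with guide 1 and 15.8, 14.8 and 14.5 FPKM in the controls. Pcsk6, a proprotein convertase, was at 0.692, 0.418 and 0.6501 FPKM with guide 1 and 20.1, 17.9 and 20.4 FPKM in the controls. The log2 fold changes of these 3 were -3.53, -3.54 and -3.69, and none overlapped. Islr, a secreted leucine-rich repeat protein of mesenchymal cells, was at 5.24, 5.81 and 6.297 FPKM with guide 1 and 92.5, 84.8 and 72.5 FPKM in the controls, and Dhrs9, a dehydrogenase of retinoid metabolism, at 0.968, 1.07 and 1.08 FPKM with guide 1 and 27.6, 25.5 and 20.3 FPKM in the controls. Vegfd, a ligand of the lymphatic VEGF receptor, was at 0.968, 1.98 and 1.38 FPKM with guide 1 and 29.3, 29.2 and 19.95 FPKM in the controls, and the glutamate transporter Slc1a3 at 2.75, 2.43 and 3.22 FPKM with guide 1 and 41.4, 39.02 and 40.8 FPKM in the controls. Each of these 4 genes fell by between 3.45 and 3.63 on the log2 scale, and control replicate 3 was the lowest control in Islr, Dhrs9 and Vegfd.

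Genes of the smooth muscle contractile apparatus stood higher with guide 1. Smooth muscle and myofibroblasts build stress fibres from their own actin isoforms, and the genes for these are known targets of serum response factor, which binds the CArG box with the actin-sensing coactivators Mrtfa and Mrtfb. Of 18 tested members of a list of 24, 17 rose, 12 of them by 2-fold or more, and none fell; the median log2 fold change was 1.44, beside -0.05 over all genes and 30.1% of all genes called higher. Acta2, smooth muscle alpha-actin, was at 1733, 1787 and 1807 FPKM with guide 1 and 209, 207 and 215 FPKM in the controls (log2 fold change 3.07, SE 0.0369, limma adjusted p = 3.75e-12). It became more abundant than Actg1 in the guide 1 libraries, and the groups were far apart. Lmod1, which nucleates actin filaments in smooth muscle, rose from 0.6901 ± 0.131 FPKM in the control to 11.1 ± 0.564 with guide 1 (SD, n = 3), and Myl9, the regulatory myosin light chain, from 19.2 ± 2.03 FPKM in the control to 135 ± 5.64 with guide 1. Tpm1, a tropomyosin, rose from 121 ± 11.6 FPKM in the control to 433 ± 18.5 with guide 1. Srf itself rose by 0.82 and Mrtfa by 0.54. Cnn1, calponin 1, did not follow, at 192, 195 and 192 against 199.7, 200.4 and 196 FPKM (log2 fold change -0.04, limma adjusted p = 0.304).

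The 250 bases before the RefSeq gene start (build GRCm38.p6) were searched on both strands for the CArG box, a stretch of A and T between CC and GG, because this list's genes moved together. A window was present for 15 of the 17 members that rose, and 4 of these held a CArG box (Cnn2, Myl9, Srf and Vcl), beside 1.62% of all 27025 genes with a window and 1.59% of the 4959 tested genes with one. Among genes called higher by 2-fold or more 14 of 286 windows held it (4.90%) and among those called lower 3 of 234 (1.28%). A match describes the letters and not a bound site. The list includes known targets of serum response factor and Srf itself, so a high share could be found whatever guide 1 did. A part of this factor in the rise was not tested. The stretches around the matches are given 5′ to 3′ on the strand of the gene, with the CArG box in capitals, for Cnn2 (chr10:79988509-79988588, plus strand), Myl9 (chr2:156775268-156775347, plus strand), Srf (chr17:46556200-46556279, minus strand, where a further match lies in the lower-case part) and Vcl (chr14:20929148-20929215, plus strand).
Cnn2: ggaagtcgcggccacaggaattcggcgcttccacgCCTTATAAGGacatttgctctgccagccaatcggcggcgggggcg
Myl9: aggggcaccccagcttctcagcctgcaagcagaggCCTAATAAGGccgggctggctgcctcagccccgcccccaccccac
Srf: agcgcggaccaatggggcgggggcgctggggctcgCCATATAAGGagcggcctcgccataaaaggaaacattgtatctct
Vcl: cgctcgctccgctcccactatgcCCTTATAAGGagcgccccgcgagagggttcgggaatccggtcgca
The calponin gene Cnn2 was at 325, 334 and 341 FPKM with guide 1 and 121, 124 and 132 FPKM in the controls, and Vcl, vinculin of focal adhesions, at 51.3, 50.97 and 57.2 FPKM with guide 1 and 16.7, 14.6 and 17.9 FPKM in the controls. Both rose without overlap, by 1.40 and 1.64 on the log2 scale. The AP-1 motif TGANTCA was present in 34 of the 286 windows of genes called higher by 2-fold or more (11.9%), in 5.98% of those of genes called lower by 2-fold or more, in 4.78% of those of tested genes and in 7.82% of all windows. The TEAD motif CATTCC was present in 17.5%, 14.5%, 12.3% and 14.4% of the same 4 sets.

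Single genes of actin remodelling moved in both directions. Rnd1, a small GTPase that loosens stress fibres, rose from 1.27 ± 0.252 FPKM in the control to 9.35 ± 0.574 with guide 1, and Ezr, the membrane-actin linker ezrin, from 20.4 ± 1.06 FPKM in the control to 46.99 ± 1.13 with guide 1. Zyx, zyxin of focal adhesions, fell from 212 ± 26.96 FPKM in the control to 104 ± 3.86 with guide 1, and Rac1, the GTPase of lamellipodia, from 171 ± 2.18 FPKM in the control to 116 ± 0.915 with guide 1; both of their differences were called, with log2 fold changes of -1.01 and -0.55. Rac1 and Pxn, the other focal adhesion gene that fell, lie on chromosome 5, and Pxn was at 0.22 against its neighbours, that is, against the median of its block of 25 neighbouring genes (described at the end); Rac1 was at -0.05 there and not called. The coat of caveolae, small flask-shaped pits of the plasma membrane, was higher in 6 of 7 tested members. Its main protein Cav1 rose from 6.46 ± 1.09 FPKM in the control to 37.4 ± 2.31 with guide 1, and Ehd2 (0.80), Pacsin2 (0.79), Cav2 (0.76), Cavin1 (0.56) and Cavin3 (0.26) rose by less. Cavin2 stood at 82.6, 77.6 and 84.9 against 88.1, 83.1 and 82.8 FPKM and overlapped.

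Most tested junction genes of epithelia also stood higher. Desmosomes tie the keratin filaments of neighbouring cells together through plakophilins and plakoglobin. Of 9 tested members of the desmosome and hemidesmosome list, 8 rose, 6 by 2-fold or more, and 1 fell, with a median log2 fold change of 1.38. Pkp2, plakophilin 2, was at 11.2, 11.6 and 12.2 FPKM with guide 1 and 0.948, 0.951 and 1.27 FPKM in the controls (log2 fold change 2.62, SE 0.0744, limma adjusted p = 8.8e-10). Jup, plakoglobin, was at 20.7, 19.9 and 21.9 FPKM with guide 1 and 2.995, 3.21 and 3.07 FPKM in the controls (log2 fold change 2.42, SE 0.06301, limma adjusted p = 4.91e-10). Both sets of libraries were tight and far apart. Itga6, an integrin chain of hemidesmosomes, rose by 1.70, the cytolinker Plec by 1.49, Pkp1 by 1.38, the plakin Ppl by 1.30, Dst by 0.52 and Perp by 0.40. Pkp4 fell by 0.25, and set against its 25 neighbours on the chromosome it was at -0.03 and not called (limma adjusted p = 0.688). The desmosomal cadherins were not among the tested members. Under the filter, the integrin chain Itgb4 went the other way from Itga6. It was at 0.259, 0.355 and 0.312 FPKM with guide 1 and 0.879, 0.854 and 0.796 FPKM in the controls. Pkp3, also under the filter, was higher, at means of 0.143 FPKM with guide 1 and 0.00511 FPKM in the controls. Col17a1 was near 0 in both groups, at means of 0.0231 and 0.0175 FPKM.

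Among cadherins, catenins and tight junction genes 5 of 6 rose and Cdh3 fell. Cldn1, the tight junction protein claudin 1, was at 3.15, 2.42 and 3.55 FPKM with guide 1 and 0.09404, 0.156 and 0.114 FPKM in the controls, with no overlap. It rose by 1.84, and the catenin genes Ctnna1, Ctnnb1 and Ctnnd1 by 0.59, 0.43 and 0.25. Of 18 listed keratins 10 had a row and 2 passed the filter, Krt18 and Krt80, a type II keratin, which was at 17.7, 16.7 and 19.3 FPKM with guide 1 and 1.304, 1.48 and 1.38 FPKM in the controls (log2 fold change 2.98, SE 0.0668, limma adjusted p = 1.86e-10). Krt7 and Krt19, simple epithelial keratins under the filter, were at means of 1.21 and 0.908 FPKM with guide 1 and at most 0.0348 FPKM in any control. Of the cornified envelope list 3 of 4 tested members fell, Slpi, the small proline-rich genes Sprr1a (-0.65) and Sprr2a1 (-2.54), whose reads can be shared with its near copies. Anxa1, annexin A1, rose from 90.1 ± 0.969 FPKM in the control to 435 ± 9.95 with guide 1, with 447, 430.1 and 429 FPKM in the guide 1 libraries.

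Regulators and markers of the mesenchymal state were mixed, with 9 of 15 tested members higher (60%) and 5 lower (33.3%). Over all genes 30.1% were called higher and 38.4% lower. Snai2, a repressor of epithelial genes, rose from 13.5 ± 0.637 FPKM in the control to 20.8 ± 1.999 with guide 1, while its relative Snai1 fell from 27.9 ± 1.35 FPKM in the control to 9.21 ± 1.25 with guide 1. Twist2 rose by 1.54 and Foxc2, a forkhead factor at most 0.2 FPKM in any control, by 2.23. Spp1, the matrix cytokine osteopontin, was at 709.98, 748 and 729 FPKM with guide 1 and 466, 458 and 401 FPKM in the controls, and the collagen-crosslinking enzyme Lox fell by 1.02. With each gene set against its neighbours 3 in place of 5 members were called lower, without Lox (-0.23).

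Structural genes of the extracellular matrix moved in both directions. The list had 21 tested members of 40 listed, of which 13 rose, 10 by 2-fold or more, and 7 fell, 3 by 2-fold or more, with a median of 0.92. The called shares were 61.9% higher and 33.3% lower, beside 30.1% and 38.4% of all genes. Col4a1, a chain of the type IV collagen network, was at 118, 117 and 131 FPKM with guide 1 and 27.8, 26.1 and 29.4 FPKM in the controls (log2 fold change 2.10, SE 0.0655, limma adjusted p = 1.65e-09). Col4a2, its partner chain, rose from 34.6 ± 1.899 FPKM in the control to 101 ± 7.503 with guide 1, and Nid1, which joins laminin to collagen IV, from 32.6 ± 2.88 FPKM in the control to 88.9 ± 5.36 with guide 1. Col7a1, the anchoring fibril collagen of skin and mucosa, was at 8.92, 11.7 and 10.2 FPKM with guide 1 and 1.34, 1.38 and 1.34 FPKM in the controls, and Col18a1 rose by 1.81. None of these 5 genes' groups overlapped. In the other direction Tnn, tenascin N, was at 0.105, 0.0842 and 0.117 FPKM with guide 1 and 9.18, 9.11 and 9.47 FPKM in the controls, and Lama4, a laminin chain of vessels and mesenchyme, at 0.0206, 0 and 0 FPKM with guide 1 and 5.28, 4.59 and 4.64 FPKM in the controls. Fbn2, fibrillin 2, fell from 9.72 ± 0.774 FPKM in the control to 0.892 ± 0.0765 with guide 1, Fbln2 by 0.91 and Sparc by 0.68.

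Integrins and syndecans, the receptors for this matrix, were higher in 12 of 17 tested members, 7 of them by 2-fold or more, and lower in 3. Itga5, the fibronectin receptor chain, was at 44.002, 44.8 and 51.1 FPKM with guide 1 and 14.6, 14.2 and 14.4 FPKM in the controls, and Itgb5, a vitronectin receptor chain, at 158, 158 and 167 FPKM with guide 1 and 64.01, 62.7 and 57.04 FPKM in the controls. They rose by 1.62 and 1.38. Itgb3 went from at most 0.2 FPKM in the controls to 3.67, 4.41 and 3.83 FPKM. Itga9 (-0.98), Itga7 (-0.64) and Sdc4 (-0.48) fell.

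Matrix proteases fell in 8 of 11 tested members, 6 by 2-fold or more, with a median of -1.15 and 38.4% of all genes called lower. Mmp2, gelatinase A, was at 1.68, 1.12 and 1.41 FPKM with guide 1 and 27.01, 26.4 and 22.4 FPKM in the controls (log2 fold change -3.45, SE 0.108, limma adjusted p = 1.65e-09). The aggrecanase Adamts5 fell from 8.54 ± 0.354 FPKM in the control to 0.705 ± 0.07002 with guide 1, Adamts1 from 26.98 ± 1.96 FPKM in the control to 6.81 ± 0.586 with guide 1, and Htra1, a secreted serine protease, from 31.7 ± 1.98 FPKM in the control to 8.42 ± 0.653 with guide 1. Adam12 (-1.15), Adam10 (-0.66) and Ctsd (-0.44) fell by less. Against these, Plau, the urokinase plasminogen activator, was at 95.5, 91.997 and 95.001 FPKM with guide 1 and 10.95, 10.98 and 12.5 FPKM in the controls (log2 fold change 2.93, SE 0.0553, limma adjusted p = 6.73e-11), and the stromelysin Mmp10 at 5.24, 6.64 and 5.89 FPKM with guide 1 and 0.192, 0.231 and 0 FPKM in the controls; the lysosomal cathepsin Ctsl rose by 0.84. Protease inhibitors fell in 8 of 11 tested members and rose in 2. Timp3, an inhibitor of metalloproteinases bound to matrix, was at 121, 117 and 128 FPKM with guide 1 and 415, 390.001 and 393 FPKM in the controls, and its secreted relatives Timp1 and Timp2 fell by 0.87 and 0.56. Serpine2 (-1.05), Serpinb6b (-0.98) and the membrane-anchored inhibitor Reck (-0.71) also fell. The cysteine protease inhibitors Cst3 (1.07) and Cstb (0.59) rose.

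**Figure D3:**
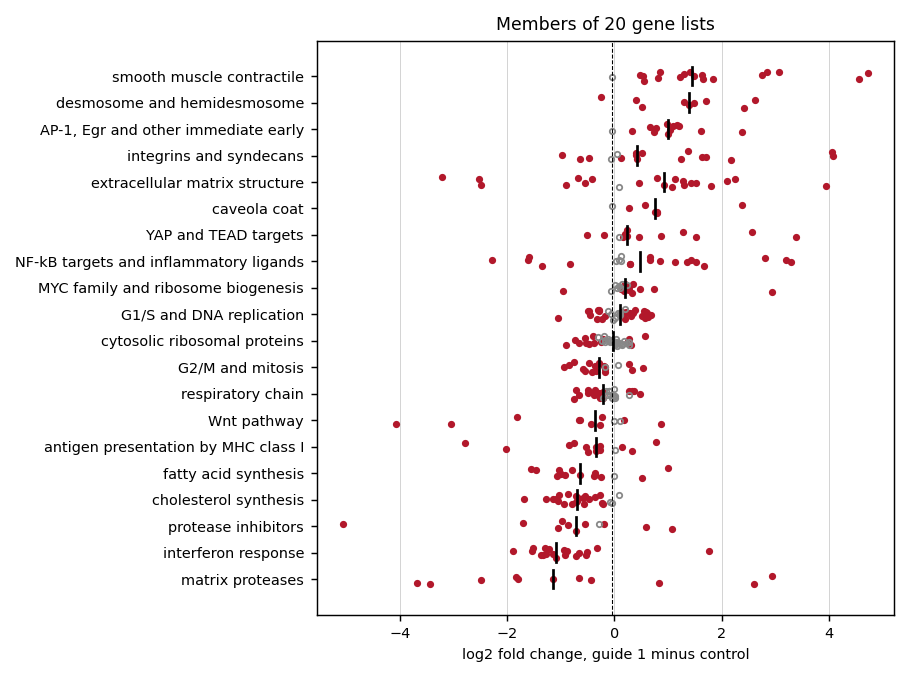
Each point is a tested member of 1 of 20 gene lists, placed by its log2 fold change, guide 1 minus control, on the x axis; red points were called, open grey points were not, black bars are list medians and the dashed line is the median of all genes. The medians run from 1.44 for the smooth muscle list to -1.15 for matrix proteases.

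Growth factor genes changed ligand by ligand. Of 7 tested genes of the VEGF family and other angiogenic ligands 5 rose and 2 fell. Vegfa, the main angiogenic ligand, was at 37.7, 39.5 and 42.5 FPKM with guide 1 and 13.3, 13.2 and 11.4 FPKM in the controls (log2 fold change 1.59, SE 0.0685, limma adjusted p = 1.54e-08). Pdgfc (1.10), the co-receptor Nrp1 (0.88) and Efnb2 (0.27) rose, and Angptl2 (-0.90) fell with Vegfd, so the VEGF ligands did not move one way. In the insulin-like growth factor axis 3 of 8 rose, all of them binding proteins (Igfbp7, Igfbp3 and Igfbp4), and 5 fell, the ligand Igf2, the receptors Igf1r and Igf2r, the adaptor Grb10 and H19. Igf2 was at 18.8, 18.02 and 20.2 FPKM with guide 1 and 45.7, 46.04 and 38.2 FPKM in the controls, and Igfbp3 at 9.46, 10.1 and 10.7 FPKM with guide 1 and 0.738, 0.889 and 0.9705 FPKM in the controls. Their groups did not overlap, and their log2 fold changes were -1.14 and 2.57. Igfbp4 rose by 0.96, and the adaptor Grb10 fell from 55.6 ± 2.12 FPKM in the control to 23.7 ± 0.902 with guide 1, Igf2r by 0.74 and Igf1r by 0.33 on the log2 scale. Against its neighbours Igf1r was at -0.15 and not called.

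Of 6 FGF genes Fgfr2 (0.88) and Fgfr1 (0.41) rose, and the ligands Fgf23 and Fgf2 (-0.60), the decoy receptor Fgfrl1 (-1.17) and the adaptor Frs2 (-0.78) fell. Of 5 EGFR genes Hbegf, a heparin-binding ligand (0.95), and the feedback inhibitors Errfi1 (1.07) and Lrig1 (1.07) rose and Lrig3 (-1.50) fell. Egfr itself stood at 3.88, 3.99 and 4.29 against 3.78, 4.004 and 3.45 FPKM (limma adjusted p = 0.318). The TAM family had 3 tested members: the receptor Axl rose by 0.23, while Tyro3 (-0.26, and -0.05 and not called against its neighbours) and Gas6 fell.

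In the TGF-beta and BMP pathway 10 of 22 tested members rose (45.5%) and 8 fell (36.4%), beside 30.1% and 38.4% of all genes. The median was -0.01, and 3 ligands and an antagonist held the 4 largest increases. Inhba, the activin A subunit, was at 11.3, 10.9 and 11.2 FPKM with guide 1 and 1.104, 1.25 and 1.304 FPKM in the controls, and Tgfb1 at 29.3, 29.2 and 29.7 FPKM with guide 1 and 9.204, 9.04 and 8.65 FPKM in the controls. The BMP antagonist Grem1 was at 157, 153 and 156 FPKM with guide 1 and 61.9, 60.7 and 57.4 FPKM in the controls, and Bmp4 at 36.2, 36.3 and 38.8 FPKM with guide 1 and 13.4, 12.8 and 16.4 FPKM in the controls. These 4 rose by 2.45, 1.61, 1.36 and 1.33 without overlap, and the signal transducer Smad3 by 0.68. Tgfb2 (-0.52), the activin receptor gene Acvr1b (-0.66), Inhbb (-0.85) and Id4 (-1.56) fell. In the Wnt pathway 8 of 12 tested members fell and 2 rose, with a median of -0.36. After Sfrp1 the largest falls were in the ligand Wnt5b, at 0.0565, 0.106 and 0.149 FPKM with guide 1 and 9.49, 9.17 and 6.05 FPKM in the controls, and in Lgr4, the R-spondin receptor, at 7.16, 7.697 and 7.78 FPKM with guide 1 and 34.3, 32.1 and 22.8 FPKM in the controls. Control replicate 3 was the lowest control in both. Wnt5a (-0.66) fell and the receptor Fzd6 (0.86) rose, and against their neighbours 1 member was called higher. In the Notch pathway the target Hes1 was at 59.9, 55.5 and 56.3 FPKM with guide 1 and 7.25, 8.203 and 12.02 FPKM in the controls, the target Nrarp rose by 1.80 and the ligand Jag1 by 1.37, while Lfng (-1.07), Hey1 (-0.54) and Rbpj (-0.46) fell and Maml1 was at 9.41, 9.76 and 10.6 against 11.9, 10.6 and 10.9 FPKM (limma adjusted p = 0.0883). Lfng and Rbpj lie on chromosome 5, where Rbpj was at 0.12 against its neighbours, and without that chromosome the list's median was 1.37 in place of -0.15. Hey1 was at -0.17 against its neighbours, which left 1 of the 3 calls lower.

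Immediate early genes, the transcription factors that growth factors induce within minutes, stood higher in 12 of 13 tested members, 7 by 2-fold or more, and lower in none, with a median of 1.01. Fosl1, an AP-1 subunit, was at 14.3, 14.9 and 16.2 FPKM with guide 1 and 1.996, 1.55 and 2.88 FPKM in the controls (log2 fold change 2.38, SE 0.132, limma adjusted p = 9.73e-08). Nr4a1, an orphan nuclear receptor, was at 17.6, 18.8 and 18.6 FPKM with guide 1 and 5.07, 4.93 and 6.04 FPKM in the controls, and Ier5 at 78.5, 74.2 and 76.01 FPKM with guide 1 and 37.4, 35.8 and 37.1 FPKM in the controls. In all 3 genes every guide 1 library lay above every control. Egr1, a zinc finger factor, rose by 1.18, Maff by 1.21, Ier2 by 1.09, Atf3 by 0.78, Klf4 by 0.67 and Myc by 0.33. Jund, at 154, 169.9 and 172 against 181, 169.6 and 164 FPKM, did not pass. Feedback genes of the MAPK pathway rose in 6 of 14 (42.9%) and fell in 4 (28.6%), beside 30.1% and 38.4% of all genes. Dusp4, a nuclear MAPK phosphatase, was at 48.6, 42.8 and 47.7 FPKM with guide 1 and 8.94, 7.36 and 10.4 FPKM in the controls, Dusp5 rose by 1.77, Dusp1 by 1.30, and the ETS factors Etv4 and Etv5 by 0.94 and 0.79. Spry2 (-0.66), Spred2 (-0.48), Dusp16 (-0.45) and Dusp6 (-0.32, and 0.05 against its neighbours) fell, 2 of them when set against their neighbours, where Spred2 was at -0.02. Myc was at 0.11 there and not called.

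Targets of YAP and TEAD rose in 10 of 13 tested members and fell in 2, with a median of only 0.24. Ccn2, connective tissue growth factor, was at 603, 619 and 683 FPKM with guide 1 and 56.1, 51.2 and 72.3 FPKM in the controls (log2 fold change 3.40, SE 0.107, limma adjusted p = 1.68e-09). It stood out in size, and guide 2 was at a mean of 82.7 FPKM. F3, tissue factor, was at 89.5, 87.7 and 94.2 FPKM with guide 1 and 29.5, 28.999 and 33.7 FPKM in the controls, and Tead2 at 25.6, 22.6 and 24.8 FPKM with guide 1 and 8.21, 9.503 and 10.5 FPKM in the controls. They rose by 1.53 and 1.29, Asap1 by 0.87 and Tead1 by 0.46, while Tead3 fell by 0.19, a call lost without guide 1 replicate 1 or 2 or control replicate 2 or 3 (-0.18 to -0.16).

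Inflammatory genes went in both directions, with 13 of 22 tested NF-kB targets and ligands higher, 8 by 2-fold or more, and 5 lower. The called shares were 59.1% higher and 22.7% lower, beside 30.1% and 38.4% of all genes. Il1rl1, the receptor of interleukin 33, was at 72.9, 69.99 and 70.3 FPKM with guide 1 and 6.18, 6.47 and 6.49 FPKM in the controls (log2 fold change 3.29, SE 0.0424, limma adjusted p = 5.74e-12). The monocyte chemokine Ccl2 was at 13.2, 12.7 and 13.7 FPKM with guide 1 and 0.563, 0.628 and 0.465 FPKM in the controls, and Tnfaip3, the ubiquitin-editing inhibitor A20, at 12.01, 13.3 and 13.95 FPKM with guide 1 and 0.7903, 1.04 and 1.21 FPKM in the controls. They rose by 3.20 and 2.81, Lif by 1.67, Tnfaip2 by 1.51 and Nfkbie by 1.42. In contrast the chemokine Cxcl12 was at 122, 116 and 125 FPKM with guide 1 and 383, 379 and 357 FPKM in the controls, and the adhesion molecule Icam1 at 0.238, 0.195 and 0.163 FPKM with guide 1 and 5.34, 4.67 and 4.65 FPKM in the controls. Vcam1 (-1.36), the receptor antagonist Il1rn (-1.60) and the receptor Tnfrsf1a (-0.84) also fell. In prostaglandin synthesis both cyclooxygenases rose, Ptgs2 at 36.7, 38.2 and 41.9996 FPKM with guide 1 and 4.75, 4.07 and 6.49 FPKM in the controls and Ptgs1 at 19.7, 17.4 and 18.8 FPKM with guide 1 and 3.07, 2.57 and 3.12 FPKM in the controls. Abcc4 (0.53) and Pla2g4a (0.31) rose by less, and Ptgr1 (-1.23), Ptges (-0.95) and Ptges2 (-0.31) fell. Ptges2 was at -0.17 against its neighbours and not called.

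The interferon response was lower almost throughout: of 19 tested members 18 fell, 10 by 2-fold or more, and 1 rose, with a median of -1.08. These genes encode antiviral effectors and sensors that interferons switch on. Zbp1, a sensor of Z-form nucleic acids, was at 0.197, 0.107 and 0.106 FPKM with guide 1 and 3.89, 3.91 and 2.16 FPKM in the controls, and Xaf1, a proapoptotic effector, at 2.61, 3.15 and 3.25 FPKM with guide 1 and 11.7, 11.2 and 9.16 FPKM in the controls. Parp12 was at 4.94, 5.11 and 4.59 FPKM with guide 1 and 16.8, 14.9 and 15.8 FPKM in the controls (log2 fold change -1.52, SE 0.05703, limma adjusted p = 5.64e-09), and Oasl2 fell by 1.38 and Sp100 by 1.34. No member that fell had overlapping groups, and the median for guide 2 was -0.27. Over all genes 38.4% were called lower, and in 40.2% every guide 1 library lay below every control. Irf5, the member that rose, was at 2.91, 2.36 and 2.495 FPKM with guide 1 and 0.0752, 0.0549 and 0.0482 FPKM in the controls. Genes of antigen presentation by MHC class I fell in 10 of 14 and rose in 3. Psmb8, an immunoproteasome subunit, was at 1.102, 1.29 and 1.11 FPKM with guide 1 and 13.9, 13.6 and 14.2 FPKM in the controls (log2 fold change -2.78, SE 0.0564, limma adjusted p = 1.14e-10). Tap2, which carries peptides into the endoplasmic reticulum, was at 2.83, 3.61 and 3.51 FPKM with guide 1 and 17.4, 16.4 and 15.8 FPKM in the controls, Tapbpl fell by 0.85 and Psmb10 by 0.76. The class I light chain B2m rose from 264 ± 19.1 FPKM in the control to 453 ± 10.5 with guide 1, and H2-T22 by 0.32 and H2-D1 by 0.14, class I heavy chains whose reads can be shared with their relatives. Set against their 25 neighbours on the chromosome, H2-T22 was at -0.02 and H2-D1 at -0.14, and the call of H2-D1 was lost without guide 1 replicate 1 or 3, guide 2 replicate 2 or control replicate 1 or 3.

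Cell death regulators rose in 6 of 16 tested members (37.5%) and fell in 8 (50%), beside 30.1% and 38.4% of all genes, and their median of -0.28 was -0.01 with each gene set against its neighbours. Pmaip1, the BH3-only protein Noxa, was at 27.4, 26.9 and 24.7 FPKM with guide 1 and 3.14, 2.95 and 2.67 FPKM in the controls, and Bbc3, its relative Puma, at 8.12, 8.72 and 7.98 FPKM with guide 1 and 2.91, 3.14 and 2.13 FPKM in the controls. They rose by 2.80 and 1.32. Casp1, the inflammasome caspase, was at 0.7101, 0.755 and 0.904 FPKM with guide 1 and 10.6, 11.1 and 9.25 FPKM in the controls, and Ripk3, the kinase of necroptosis, at 1.85, 1.34 and 1.77 FPKM with guide 1 and 12.5, 11.5 and 11.6 FPKM in the controls. With Casp12 (-1.74) and Zbp1 these were the largest falls.

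Lipid synthesis genes were lower. None of the 24 tested cholesterol synthesis genes rose and 21 fell, 6 by 2-fold or more, with a median of -0.69 (-0.58 without chromosome 5). Mvk, mevalonate kinase, was at 20.2, 20.6 and 18.8 FPKM with guide 1 and 66.3, 69.5 and 63.5 FPKM in the controls (log2 fold change -1.69, SE 0.0525, limma adjusted p = 1.56e-09), and lies on chromosome 5 with Insig1, a sterol sensor, at 32.9, 30.2 and 31.3 FPKM with guide 1 and 73.6, 69.3 and 56.7 FPKM in the controls. On other chromosomes Ebp, a sterol isomerase, fell from 56.7 ± 4.29 FPKM in the control to 25.2 ± 1.65 with guide 1, and Mvd, the decarboxylase of the pathway, from 40.4 ± 4.09 FPKM in the control to 18.3 ± 0.354 with guide 1. Sqle, the squalene epoxidase, fell by 0.21, while Sc5d (-0.09, called lower at -0.17 without control replicate 3) and the regulator Srebf2 (0.08) did not pass. Of 15 fatty acid genes 12 fell and 2 rose. The desaturases Scd1 and Scd2 were at 22.2, 22.7 and 22.6 against 78.3, 71.7 and 56.7 FPKM and 129, 132 and 135 against 420.2, 392 and 293 FPKM. They fell by 1.56 and 1.46, and control replicate 3 was the lowest control in both. Fads2 (-1.07), Acsl4 (-1.04) and Acsl1 (-0.99) also fell, and Agpat2 (1.00) and Acsl5 (0.51) rose.

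Glycolytic and hypoxia genes rose in 10 of 19 (52.6%) and fell in 5 (26.3%), beside 30.1% and 38.4% of all genes. The lactate exporter Slc16a3 was at 2.58, 2.41 and 2.77 FPKM with guide 1 and 0.0444, 0.0928 and 0.06697 FPKM in the controls, and the oxygen sensor gene Egln3 rose by 1.12, Hk2 by 0.76, Eno1 by 0.64 and the glucose transporter Slc2a1 by 0.63. Ldhb, the lactate dehydrogenase chain of oxidative tissues, was at 9.42, 9.06 and 8.39 FPKM with guide 1 and 40.6, 37.9 and 31.2 FPKM in the controls, and Epas1, which encodes HIF-2 alpha, fell by 0.73. Of 33 tested respiratory chain genes 16 fell (48.5%) and 4 rose (12.1%), beside 38.4% and 30.1% of all genes. None changed by 2-fold, and Cox6a1 (-0.76) and Ndufa4 (-0.73) were lowest. Against their neighbours 11 were called lower and 3 higher, with a median of -0.10. Mitochondrial ribosome genes fell in 7 of 15 (46.7%, or 5 called lower against their neighbours) and rose in 4 (26.7%). They lay between -0.66 for Mrps28 and 0.43 for Mrpl20, whose call was lost without guide 1 replicate 1 or control replicate 1 or 2 (0.34 to 0.38). The list's count of risers was 1 without guide 1 replicate 1 or control replicate 1 or 2, and 2 without guide 1 replicate 2, and it was 1 with each gene set against its neighbours. Transporters for amino acids and glucose split 3 to 3: Slc1a3, the arginine transporter Slc7a2 at 4.85, 5.19 and 5.42 FPKM with guide 1 and 23.7, 24.4 and 22.03 FPKM in the controls, and Slc43a3 (-1.60) fell, and Slc38a2 (0.25) rose with Slc16a3 and Slc2a1. Against its neighbours Slc38a2 was at 0.08 and not called.

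Replication and division genes differed by small amounts. Genes of G1/S and DNA replication rose in 15 of 33 tested (45.5%) and fell in 10 (30.3%), beside 30.1% and 38.4% of all genes. Of those falling 5 lie on chromosome 5, among them Tyms, thymidylate synthase (-1.05), and the helicase subunit Mcm7 (-0.34, and 0.08 against its neighbours). Orc1 (0.68), Pola2 (0.62) and Cdc45 (0.56) rose. Set against their neighbours 11 members were called higher and 3 lower, and Pola2 (0.09) and Cdc45 (0.15) were not called. G2/M genes fell in 14 of 19 and rose in 3, none by 2-fold; Ect2, the cytokinesis exchange factor, was at 24.2, 21.1 and 24.8 FPKM with guide 1 and 46.4, 42.1 and 48.5 FPKM in the controls, and the centromeric histone Cenpa (-0.85) and the kinetochore gene Nuf2 (-0.75) were next. With each gene set against its 25 neighbours 9 of these 19 were called lower, with a median of -0.04. Cenpa was itself at -0.04 there and not called. Inhibitors of cyclin-dependent kinases and p53 targets rose in 8 of 18 (44.4%) and fell in 9 (50%), beside 30.1% and 38.4% of all genes. Trp53 was at 64.3, 64.4 and 68.8 FPKM with guide 1 and 39.8, 37.7 and 43.4 FPKM in the controls. Gadd45g was higher by 1.32, and Cdkn2c (-1.02), Rb1 (-0.91) and Cdkn1b (-0.73) were lower. Against their neighbours 6 members of this list were called higher and 5 lower. Of 6 tested histone genes H1f2 (2.50), H2bc4 (2.48) and H2bc8 (1.62) rose, H1f0 (-0.17) fell with all libraries but not when any of 5 libraries was left out (guide 1 replicates 2 or 3, guide 2 replicate 2, control replicates 1 or 2), and H2ac4 and H2bc12 did not pass. Most histone transcripts lack a poly(A) tail, so these libraries hold only their polyadenylated part.

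Ribosomal protein genes changed little. Of 40 tested members 25 were not called, 10 fell and 5 rose (8 without guide 2 replicate 1), none by 2-fold, with a median of -0.02. The 5 largest falls, Rpl21 (-0.91), Rpl9 (-0.74), Rpl6 (-0.67), Rpl5 (-0.55) and Rplp0 (-0.54), are the list's 5 genes on chromosome 5. With each gene set against its neighbours 6 were called lower and 1 higher, and Rpl9, Rpl5 and Rplp0 were not called. MYC family and ribosome biogenesis genes rose in 12 of 20 (60%, beside 30.1% of all genes) and fell in 1, but against their neighbours 7 were called higher and none lower. Mycl, a MYC relative, was at 8.67, 9.05 and 9.49 FPKM with guide 1 and 0.3405, 0.146 and 0.458 FPKM in the controls, and Bop1 rose by 0.73; Mxd4, an antagonist of MYC on chromosome 5, fell by 0.97 and was at -0.33 against its neighbours (limma adjusted p = 0.114). Proteasome subunits fell in 9 of 19 (47.4%, beside 38.4% of all genes) and rose in 1, or 2 without guide 2 replicate 1, with Psmc2 (-0.81) and Psmb1 (-0.76) lowest. Against their neighbours 5 were called lower and none higher.

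Stress and degradation lists were mixed. Chaperones rose in 8 of 15 (53.3%) and fell in 5 (33.3%), beside 30.1% and 38.4% of all genes. They ran from Dnajb4 (1.23) to Hspb8 (-0.84), and against their neighbours 7 were called higher and 2 lower. NRF2 targets and glutathione genes rose in 9 of 20 (45%) and fell in 8 (40%), beside 30.1% and 38.4% of all genes. Gsto1, a glutathione transferase, was at 208, 201 and 206 FPKM with guide 1 and 52.4, 53.04 and 53.2 FPKM in the controls. Gclm, of glutathione synthesis, fell by 0.75 and the thioredoxin gene Txn1 by 0.77. Genes of the ATF4 and unfolded protein responses rose in 13 of 21 (61.9%, beside 30.1% of all genes) and fell in 5, led by Vldlr (1.95) and Nupr1 (1.69), with the serine synthesis genes Psat1 (-0.54) and Psph (-0.69) lowest. Against their neighbours 8 were called higher and 2 lower, with a median of 0.09 in place of 0.26, and Psph was not called. Lysosomal, V-ATPase and autophagy genes fell in 14 of 29 (48.3%) and rose in 9 (31%), beside 38.4% and 30.1% of all genes, and against their neighbours 6 were called lower and 8 higher, with a median of -0.05. Sqstm1, the autophagy receptor p62, was at 197, 189 and 199 FPKM with guide 1 and 97.8, 97.6 and 83.9 FPKM in the controls. Of 10 endosomal and vesicle genes 5 fell (50%) and 3 rose (30%), beside 38.4% and 30.1% of all genes. Nsg1 lay far below the rest, and those that rose included Rab3b (1.68) and Rab38 (1.86).

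Homeobox and developmental regulators fell in 12 of 20 tested members and rose in 5. After Eya2 the largest falls were Hoxa7, at 1.97, 1.91 and 1.95 FPKM with guide 1 and 6.67, 5.65 and 6.11 FPKM in the controls, and Hoxa5, at 4.54, 4.62 and 4.71 FPKM with guide 1 and 10.6, 9.61 and 9.59 FPKM in the controls. Sox9 (-0.66) fell, and Irx3 (1.03), Eya1 (0.60) and Sox4 (0.49) rose.

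Some genes passed from near 0 in 1 group to a clear level in the other. With limits chosen after the values were seen, 16 genes were under 0.5 FPKM in every control and at least 5 FPKM in every guide 1 library, and 19 the reverse. Besides genes already described, those gained included Cdh6, a type II cadherin, at 6.37, 5.79 and 7.23 FPKM with guide 1 and 0.0412, 0.0231 and 0.0295 FPKM in the controls, the sulfotransferase gene Chst1, listed at 0 in every control and at 8.05, 6.56 and 7.25 FPKM with guide 1, and Fxyd5, a regulator of the sodium pump, at 9.46, 7.42 and 8.203 FPKM with guide 1 and 0.345, 0.196 and 0.172 FPKM in the controls. Nrep was at 11.1, 11.2 and 11.1 FPKM with guide 1 and 0.302, 0.419 and 0.433 FPKM in the controls. Those lost included Alpl, tissue-nonspecific alkaline phosphatase, at 0.0699, 0.127 and 0.0279 FPKM with guide 1 and 7.39, 8.07 and 7.56 FPKM in the controls, the matrix genes Prelp, at 0.349, 0.4799 and 0.499 FPKM with guide 1 and 15.3, 14.7 and 9.28 FPKM in the controls, and Svep1, at 0.0198, 0.0257 and 0.0135 FPKM with guide 1 and 7.16, 8.25 and 6.12 FPKM in the controls, and Gfra1, a receptor for GDNF, at 0.197, 0.274 and 0.228 FPKM with guide 1 and 8.09, 7.24 and 5.06 FPKM in the controls. Control replicate 3 was the lowest control in Prelp, Svep1 and Gfra1. Guide 2 had a mean under 0.5 FPKM in 3 of the 16 and in 6 of the 19.

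Guide 2 was set beside guide 1 in the same fit. The guide 2 libraries share the controls with guide 1, so agreement between both comparisons with the control is no independent check, and only the difference between the knockouts was tested. At a limma adjusted p under 0.05, 3765 of the 6948 genes differed between them (54.2%). In 980 genes (14.1%) guide 1 differed from both the control and guide 2 while guide 2 against control was not called, 383 higher with guide 1 (5.51%) and 597 lower (8.59%); a p that misses the threshold does not show that guide 2 equalled the control.

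Tagln was the largest of these, at 10.5, 10.7 and 10.1 FPKM in the guide 2 libraries, beside 253, 244 and 239.9 with guide 1 and 8.88, 8.47 and 10.9 in the controls; this difference between the guides is what chose it (guide 2 minus guide 1 -4.43 on the log2 scale). The guide 2 libraries lay among the controls. Ctxn1, a small membrane protein, was at 42.3, 41.6 and 43.4 FPKM with guide 1, 12.1, 11.6 and 10.9 with guide 2 and 10.8, 10.6 and 10.6 in the controls. Aqp1, a water channel, was at 14.6, 12.9 and 16.1 FPKM with guide 1, 3.19, 3.53 and 3.501 with guide 2 and 4.12, 3.14 and 2.51 in the controls. In both genes guide 1 stood apart from the other groups. Stard10, a lipid transfer protein, was at 12.9, 12.98 and 12.6 FPKM with guide 1, 3.12, 2.97 and 3.29 with guide 2 and 2.75, 3.38 and 2.499 in the controls. With Fez2 (guide 2 minus guide 1 -1.60) and Itga6 (-1.65) these were higher in the guide 1 libraries alone by this rule. Lower by the same rule were Smpdl3b, a lipid-modifying phosphodiesterase of the membrane, at 1.95, 2.88 and 1.88 FPKM with guide 1, 23.1, 21.4 and 21.7 with guide 2 and 25.9, 23.9 and 22.03 in the controls, and the potassium channel Kcnk2, at 1.39, 1.22 and 0.932 FPKM with guide 1, 9.78, 10.7 and 9.61 with guide 2 and 11.3, 10.995 and 10.6 in the controls. Tap2, Ldhb, Lgals3bp and Id4 were further examples, with guide 2 above guide 1 by 1.95, 1.82, 1.66 and 1.47 log2 units.

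**Figure D4:**
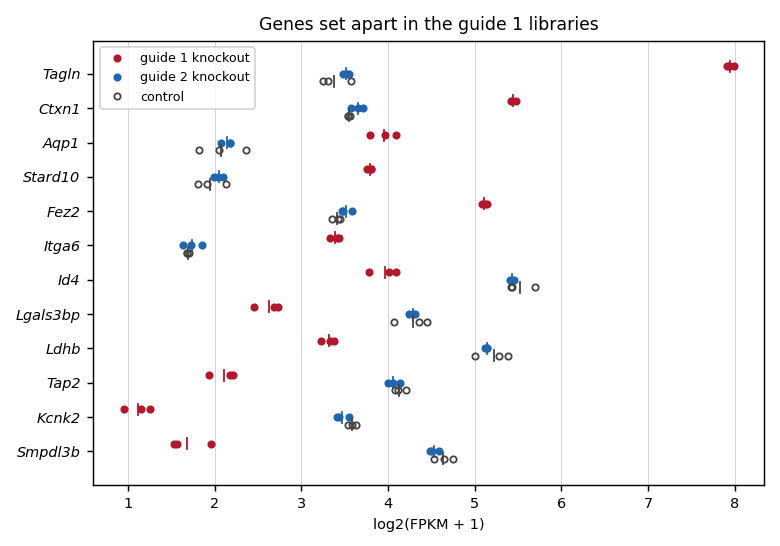
Each row is a gene, the x axis is log2(FPKM + 1), and red, blue and open circles are the 3 guide 1, 3 guide 2 and 3 control libraries, with a bar at each mean. In the 6 upper genes guide 1 lies to the right of both other groups and in the 6 lower genes to the left, by between 1.47 and 4.43 log2 units from guide 2.

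Neighbouring genes often moved together. The tested genes were placed in the order of the RefSeq annotation (GRCm38.p6) and cut into 256 blocks of 25 neighbours, or more in the last block of a chromosome, a step chosen after the values were seen, and the block's median was compared between groups, with 310 genes left without a place. By limma 93 blocks were higher with guide 1 (36.3%) and 128 lower (50%), 86.3% in all, and 48 were lower and 18 higher by at least 0.3 log2 units. Chromosome 5 held 22 of those 48. All 22 of its blocks were lower by at least 0.3, and 523 of its 574 tested genes (91.1%) were below the control, with a median log2 fold change of -0.53 with guide 1 and -0.31 with guide 2. The chromosome held 8.26% of the genes and 17.6% of the lower calls, and 51 of the 341 lower calls at 2-fold, Nsg1 among them, while Igfbp7 rose from it by 3.88. Between guide 2 and guide 1 138 of 256 blocks differed (53.9%), 20 of them among the 22 of chromosome 5. By whole chromosomes all 20 differed from the control, 8 higher (40%) and 12 lower (60%), and 13 differed between the guides (65%). Chromosomes 10 and 11 counted as lower through differences of only -0.04 and -0.03. The medians of their genes' log2 fold changes were 0.003 and 0.002. Chromosomes 15, 16 and 17 were higher, with medians of 0.27, 0.22 and 0.24.

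Outside chromosome 5, runs of blocks that were shifted one way by 0.3 log2 units or more covered parts of chromosomes. On chromosome 11 8 of 21 blocks, from Polm to Cenpv, were lower by 0.35 to 0.49, with 178 of 200 genes below the control. On chromosome 4 7 of 18 blocks, from Tmem68 to Psip1, were lower by 0.30 to 0.57. On chromosome 10 3 of 11 blocks, from Oaz1 to B4galnt1, had a median of -0.38 with guide 1 and -0.05 with guide 2, and the knockouts differed in all 3 blocks (guide 2 minus guide 1 0.21 to 0.37, highest limma adjusted p = 3.35e-07). Further runs were lower on chromosome 18, from Commd10 to Pmaip1 (-0.80 to -0.39), and on chromosome 8, from Gins2 to Gm21399 (-0.39 to -0.33). Runs were higher on chromosome 15, from Csdc2 to Chkb (0.30 to 0.36) and from Pfkm to Itga5 (0.44 to 0.47). On chromosome 17 a run from Ppp1r18 to Efna5 was higher (0.30 to 0.39), and the knockouts differed in all 4 of its blocks. Small shifts of genes within such runs move with their neighbours; DNA copy number was not measured here. Each gene set against its block left 51.5% of the calls higher, with all 18 tested smooth muscle genes called higher. Of the 308 called genes named here 30 were not called in that setting.

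**Figure D5:**
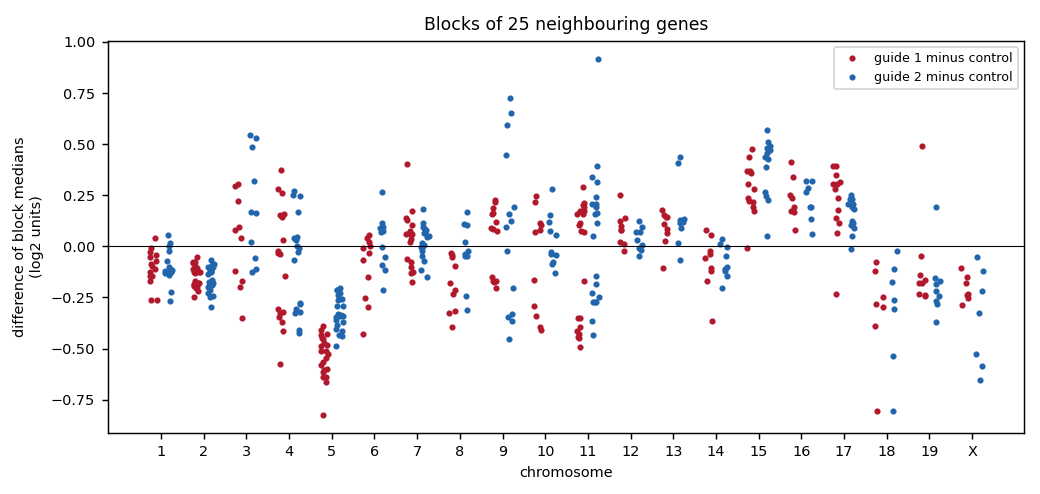
Each point is a block of 25 neighbouring genes, placed by chromosome on the x axis and by the difference of its median from the control in log2 units on the y axis, red for guide 1 and blue for guide 2, which share the controls. All 22 red points of chromosome 5 lie below -0.3, and most red points of chromosomes 15, 16 and 17 lie above 0.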

How the data were processed

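Poly(A) RNA was sequenced paired-end on a NovaSeq instrument from stranded libraries, per the labels' protocols. The deposited table holds FPKM values per gene; cutadapt, FastQC, HISAT2 and StringTie stand in the submitters' processing notes, while versions and genome build are not stated there. Columns were matched to samples by the library names in the labels, and 0 other columns of per-sample values were present. Of 15620 rows, 174 rows with 62 repeated symbols were left out, and the filter kept genes averaging at least 1 FPKM in the 6 libraries. Fold changes are on the log2(FPKM + 1) scale, which understates the change of low genes. They were tested with limma 3.58.1 (R 4.3.3) with a trended prior variance in 1 fit of all 9 libraries, and adjusted by Benjamini-Hochberg over 6948 genes.

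On simulated data for guide 1 against control, with 200 of 6948 genes changed, 84.5%, 96.5% and 98.5% were recovered at 0.5, 1 and 2 log2 units, and 6.11%, 2.53% and 5.74% of the calls were false. The simulated noise was independent between genes and libraries. In the data 68.5% of the genes were called and neighbouring genes often moved together, so these shares need not hold there. Genes were named by a rule: the 15 largest called changes in each direction without overlap and with a mean of 5 FPKM or more, the 6 largest in each direction beside guide 2, the 6 most abundant, and in each list the 4 largest in each direction, or every tested member of lists of 8 or fewer. Genes named outside it were chosen after their values were seen. The members, lists and rules were chosen with earlier results of these data known. Lists are described by counts and medians, with no set test. Where no share stands beside a count, 30.1% of all genes were called higher and 38.4% lower. Alternatives changed the pseudocount, filter, scaling, prior variance, fold minimum, replicate block, rows and libraries, and, added after seeing the data, block centring and the removal of chromosome 5. Promoter sequences are those of RefSeq, build GRCm38.p6.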

Additional observations from a re-analysis of the deposited data

Results flagged for a closer look

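Of the 47 genes named by size, beside guide 2 or by level, 42 differed between the knockouts in the limma fit, beside 54.2% of all genes tested. In 38 of these 42 guide 1 lay further from the control and in 4 guide 2 did. All values in this section are guide 2 minus guide 1 on the log2(FPKM + 1) scale. Genes beside guide 2 were chosen by this difference, so their values are a description. The largest changes were chosen by the distance of guide 1 from the control, which favours guide 1 lying further out. The split between the guides is thus a description too.

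Among cytoskeletal and adhesion genes that were higher with guide 1, guide 2 was lower than guide 1 in Tagln (-4.43), Krt18 (-4.33), Nes (-2.24), Parvb (-2.23), Lama5 (-2.12), Sdc3 (-1.99), Aif1l (-1.96) and Itga6 (-1.65). Among other genes higher with guide 1 it was lower in Pgf (-3.66), Slco4a1 (-2.80), Tspan17 (-2.05), Aqp1 (-1.81), Ctxn1 (-1.79), Stard10 (-1.75), Olfml2b (-1.62), Igfbp7 (-1.61), Fez2 (-1.60) and Prl2c2 (-0.89). For S100a4 the guide 2 level was the higher (2.32).

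Among genes lower with guide 1, guide 2 lay above guide 1 in Nsg1 (4.36), Smpdl3b (2.85), Slpi (2.66), Fgf23 (2.45), Kcnk2 (2.34), Gas6 (2.15), Tap2 (1.95), Ldhb (1.82) and Lgals3bp (1.66), and by less in Slc1a3 (1.55), Id4 (1.47), Mir7678 (1.42), Islr (1.33), Vegfd (1.32), Sfrp1 (1.02), Dhrs9 (0.64) and Mmp2 (0.36). Guide 2 lay further from the control in Pcsk6 (-0.36) and H19 (-0.33). Of the abundant genes, Ftl1 (-0.49), Actb (-0.33) and Hsp90ab1 (-0.13) were lower with guide 2 and Actg1 (0.20) was higher.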

How the results depend on the processing

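With a library left out, calls for guide 1 against control numbered 4443 to 4811 (higher 1909 to 2127, lower 2472 to 2684), those at 2-fold 395 to 407 higher and 320.0 to 368 lower, and those for guide 2 against guide 1 3350.0 to 3864. A test against a fold minimum of 1.2 gave 2592 calls (1107 higher, 1485 lower) and 1425 between the guides. With a filter of 5 FPKM, which tests fewer genes, 233 were higher and 204 lower at 2-fold. The other counts over all genes stayed within 1.5 times. Of 2284 counts for gene lists 104 moved by more, 36 at the fold minimum of 1.2, 24 under block centring and 9 with the filter of 5 FPKM. Same-numbered libraries did not deviate together (r = -0.07, 0.03 and -0.09), and the fit with a replicate block gave 4774 calls and lost none of the genes named. The share of calls that were higher was 43.9%, against 49.1% with trimmed mean rescaling, 48.0% with quantile normalization, 51.5% with block centring and 48.4% without chromosome 5. Signs turned under block centring for Dusp6 (0.0491), H2-D1 (-0.14), H2-T22 (-0.0164), Mcm7 (0.0810), Pxn (0.22), Rbpj (0.12), Tmem68 (0.41), Cenpv (0.0306) and the uncalled Cnn1 (0.15), Maml1 (0.27) and Srebf2 (-0.20), and under quantile normalization for Rps2 (-0.0916); the cause was not tested. Of the 308 called genes named, 43 lost their call under at least 1 alternative, 30 of them under block centring and 26 at the fold minimum of 1.2. Of 6914 values of genes named, 6812 kept their direction and side of the threshold. Absolute depth is unknown, which limits low genes.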
